A study of Mus musculus with 6 samples.

Results

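The transcripts described here are 9 RNAs of the mouse mitochondrial genome measured by RNA-seq in inguinal white adipose tissue (IngWAT): the ribosomal RNAs mt-Rnr1 and mt-Rnr2 and the messenger RNAs mt-Nd1, mt-Nd2, mt-Nd4, mt-Nd5, mt-Nd6, mt-Co1 and mt-Cytb. They were chosen by gene symbol, through the GENCODE annotation of GRCm38, and are 9 of the 37 genes of the mitochondrial genome and 9 of the 46517 genes in the count files. All 9 passed the filter on low counts, as did 14967 genes in all. Of the 37 genes, 13 encode proteins, 22 encode transfer RNAs and the other two are the ribosomal RNAs.

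Floxed mice, with Hdac3 floxed alleles, were the controls. H3atKO mice carried the same alleles and the B6:FVB-Tg(Adipoq-cre)1Evdr/J transgene, whose Adipoq promoter drives Cre in adipocytes, so that the other cells of the tissue were not targeted. Both genotypes are labelled C57Bl6 and 5 to 9 months old, and both were fed chow. Each genotype has 3 samples, and each sample is a pool of RNA from 2 or 3 mice of a genotype, so that the spread between samples is a spread between pools. Counts on genes ran from 23865507 to 35200685 per sample, and 3 counts correspond to between 0.0852 and 0.126 counts per 1000000 gene counts (cpm). Hdac3 had 3139, 3339 and 2709 counts in floxed and 666, 413 and 204 counts in H3atKO samples (log2 fold change -1.83, SE 0.32, limma adjusted p = 0.0213). In these bulk samples a change in the number of cells of a type and a change in RNA per cell cannot be told apart.

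The mitochondrial genome is a small circle inside the mitochondrion that is copied and read apart from the nuclear chromosomes. A dedicated polymerase, Polrmt, with the factors Tfam and Tfb2m, reads each strand as a long precursor, which is cut largely at the transfer RNAs that lie between the other genes. The ribosomal RNAs, most messenger RNAs and most transfer RNAs come from heavy-strand transcription, whereas mt-Nd6 is the only messenger RNA read from the light-strand promoter. The messenger RNAs encode core subunits of the respiratory chain, whose other subunits are encoded in the nucleus and imported. White adipocytes are known to hold few mitochondria and brown or beige adipocytes many.

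The 9 genes lie on chrM of GRCm38 and none has an intron. The heavy-strand members, which the annotation places on the plus strand, are mt-Rnr1 (chrM:70-1024), mt-Rnr2 (chrM:1094-2675), mt-Nd1 (chrM:2751-3707), mt-Nd2 (chrM:3914-4951), mt-Co1 (chrM:5328-6872), mt-Nd4 (chrM:10167-11544), mt-Nd5 (chrM:11742-13565) and mt-Cytb (chrM:14145-15288). The light-strand member mt-Nd6 is annotated on the minus strand (chrM:13552-14070). The ends of mt-Nd5 and mt-Nd6 lie on opposite strands and overlap by 14 bases, from position 13552 to 13565. The last 30 bases of each gene are shown because this is where the heavy-strand and light-strand members meet, with the shared 14 base pairs in capitals, each written 5′ to 3′ on its own strand (GENCODE transcripts, chrM:13536-13565 on the plus strand and chrM:13552-13581 on the minus strand).
mt-Nd5: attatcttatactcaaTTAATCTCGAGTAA
mt-Nd6: tttattattatcgagaTTACTCGAGATTAA
Libraries were stranded, but the strand setting of the counting is not given in the sources used here. Without it, reads from mt-Nd6 and reads from the heavy-strand precursor opposite it cannot be told apart, and they are reported here as mt-Nd6 counts.

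A nuclear copy of part of the mitochondrial genome bears on which transcripts could be counted, because reads with more than 1 place were given to no gene. The annotation holds 7 genes on the minus strand of chromosome 1 (chr1:24611535-24616197) that repeat the stretch from mt-Co1 to mt-Nd4. Gm29216 repeats the last 479 bases of mt-Co1 without a difference, and Gm28439 repeats the first 876 bases of mt-Nd4. The point in mt-Co1 where the copy begins is shown because a read that lies wholly beyond it has 2 places and adds nothing to the mt-Co1 count. The copied bases are in capitals (GENCODE transcripts, chrM:6379-6408 on the plus strand and chr1:24616170-24616197 on the minus strand).
mt-Co1: gtggtctaaccggaaTTGTTTTATCCAACT
Gm29216: ggattggcaggatTTGTTTTATCCAACT
Of all 100-base windows, 30.8% in mt-Co1 and 60.8% in mt-Nd4 had an exact copy in another annotated transcript, against 3.20% in mt-Nd2. The other members had no such window at this length. With windows of 50 bases the shares were 51.1% in mt-Co1, 62.2% in mt-Nd4, 8.19% in mt-Nd2, 7.61% in mt-Nd5 and 1.04% in mt-Rnr2, and mt-Rnr1, mt-Nd1, mt-Nd6 and mt-Cytb had none. Which length applies to these reads is not known here.

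The remaining 6 protein-coding genes of the mitochondrial genome, which are not among the 9, had almost no counts. No sample had a count on mt-Atp8, mt-Co3 or mt-Nd4l, mt-Co2 and mt-Atp6 had at most 1, and mt-Nd3 had 0, 0 and 3 in floxed and 0, 0 and 6 in H3atKO samples. These encode core subunits of the respiratory chain and of the ATP synthase. All but mt-Atp8 have an annotated copy on chromosome 1, with 97.6% or more of their 100-base windows copied exactly. Reads with more than 1 place cannot be told apart from absent transcripts in these files, so nothing can be said of the level of these 6 messenger RNAs. The nuclear copy of mt-Nd3, Gm28438, differs from it by T3C (the base of mt-Nd3, the position from its first base, the base of Gm28438). The first 30 bases of each are shown with that position in capitals (GENCODE transcripts, chrM:9459-9488 on the plus strand and chr1:24613090-24613119 on the minus strand).
mt-Nd3: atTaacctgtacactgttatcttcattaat
Gm28438: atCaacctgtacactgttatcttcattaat
The 3 floxed samples, in the order of their replicate numbers, had 182, 191 and 0 counts on Gm28438, and the H3atKO samples had 324, 343 and 0. Samples with counts on Gm28438 thus had none on mt-Nd3, and in either genotype replicate 3 alone had counts on mt-Nd3.

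Counts on the mitochondrial genome made up a larger share of all gene counts in H3atKO than in floxed IngWAT. The 37 genes took 6.92%, 7.61% and 12.9% of gene counts in the floxed samples and 26.9%, 33.8% and 35.3% in the H3atKO samples. The lowest H3atKO sample was above the highest floxed sample. The means were 9.13% ± 3.26 (SD, n = 3) and 32.0% ± 4.49 (SD, n = 3), a difference of 22.9 percentage points (exact permutation p = 0.1, two-sided, below which 3 samples against 3 cannot go). The 9 members held at least 99.98% of the counts of the 37 genes in every sample.

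**Figure D1:**
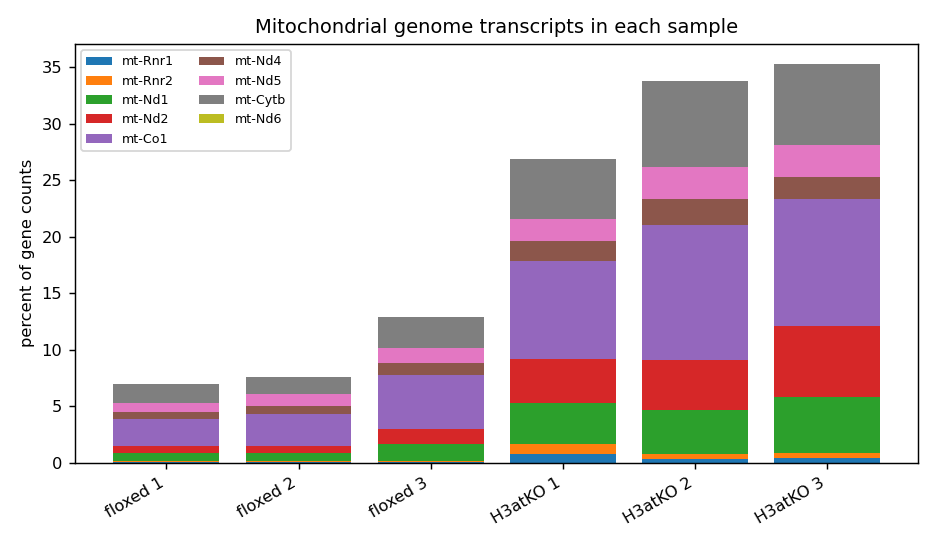
Stacked bars of the percent of all gene counts on each of the 9 transcripts, 1 bar per IngWAT sample on a linear axis from 0, with a colour per gene. The floxed bars reach between 6.92% and 12.9% and the H3atKO bars between 26.9% and 35.3%, and mt-Co1 and mt-Cytb take the largest parts.

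Both the numerator and the denominator differed between the genotypes. Mitochondrial counts were 2.43, 2.30 and 3.89 M (counts in units of 1000000) in floxed and 7.09, 9.82 and 8.42 M in H3atKO samples, while counts on all other genes were 32.8, 27.98 and 26.3 M and 19.3, 19.2 and 15.4 M. Neither quantity overlapped between the genotypes. Alignments of reads with more than 1 place also took a larger part of the H3atKO libraries, at 29.4%, 28.3% and 35.2% in floxed and 43.8%, 44.9% and 45.5% in H3atKO samples. Taken against all counted and tallied alignments, the mitochondrial share was 5.42% ± 1.55 in floxed and 15.7% ± 2.14 in H3atKO samples (SD, n = 3, exact permutation p = 0.1). The part of these multiply placed reads that came from the mitochondrial genome was not tested.

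By gene, mt-Co1 took the largest share, with 3.31% ± 1.26 of gene counts in floxed and 10.6% ± 1.71 in H3atKO samples (SD, n = 3 here and for the next shares). Next came mt-Cytb, with 1.95% ± 0.647 and 6.69% ± 1.24. The complex I messenger RNAs mt-Nd1 and mt-Nd2 had shares of 0.960% ± 0.451 and 0.859% ± 0.410 in floxed samples, which were 4.18% ± 0.659 and 4.87% ± 1.32 in H3atKO samples. Thus the heavy-strand messenger RNAs held nearly all of the mitochondrial counts. The ribosomal RNAs stayed at or below 0.558% of gene counts on average, in libraries that were selected for poly(A) tails, which mitochondrial ribosomal RNAs carry only in short form. For that reason their counts here are not a measure of the ribosomal RNA in the cell.

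In a test across all genes, the 9 members were higher in H3atKO IngWAT. With libraries scaled by TMM and limma voom fitted to 14967 genes, 9 of 9 members were called higher at a Benjamini-Hochberg adjusted p under 0.05, against 9.42% of all genes tested (7.07% were called lower). Likewise 9 of 9 had every H3atKO sample above every floxed sample, against 23.1% of all genes. The median log2 fold change of the members was 3.06 and that of all genes was -0.09, and the smallest change of a member lay at the 96.1 percentile of all genes. When libraries were scaled by their sizes alone, the median of all genes was -0.94 and that of the members 2.21, with 9 of 9 members called higher, while over all genes the 1410 higher and 1058 lower calls became 306 higher and 5666 lower.

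**Figure D2:**
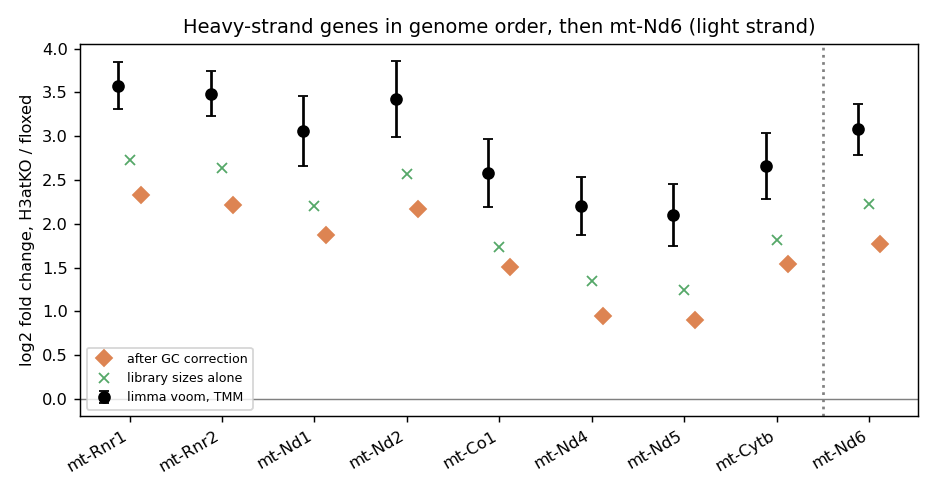
Log2 fold change of H3atKO against floxed for each of the 9 members from limma voom, with TMM scaling (circles with SE), library sizes alone (crosses) and the GC correction (diamonds), heavy-strand genes in genome order and mt-Nd6 apart at the right. The TMM values run from 2.10 for mt-Nd5 to 3.58 for mt-Rnr1 and the GC-corrected ones from 0.90 to 2.32.

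The number of members called depended on single pools and on GC content. Without floxed replicate 2 none of the 9 members was called by limma (adjusted p from 0.0508 to 0.101, with 9 of 9 at an unadjusted p under 0.05 and 3 called by edgeR's quasi-likelihood test), although the log2 fold changes stayed between 2.07 and 3.54. Without floxed replicate 1 and without H3atKO replicate 3, limma called 5 and 3 members, with edgeR at 3 in both cases. Calls were lost over the whole table in these fits: of all genes tested, 1 was called higher without floxed replicate 2, 149 without floxed replicate 1 and 87 without H3atKO replicate 3, against 1410 with all samples. By edgeR these numbers were 27, 128 and 120, against 1916 with all samples. Without floxed replicate 2, 1926 of 14860 genes were higher at an unadjusted p under 0.05 by limma. The GC content of the members lay between 34.1% and 39.9%, and over all genes the log2 fold change fell with GC content (Spearman rho -0.71 over 14922 genes, as a description). In the tenth of genes with the lowest GC content, at or below 41.0%, 28.1% of 1493 genes were called higher. Their median log2 fold change, taken without the genes of the mitochondrial genome, was 1.12. After the GC correction the median of the members was 1.77 and 7 of 9 were called higher, against 807 of all 14967 genes. The members not called were mt-Nd4 and mt-Nd5.

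The ribosomal RNAs had the largest changes among the members with all 6 samples. Without H3atKO replicate 1 mt-Nd2 came first, with a log2 fold change of 3.71 against 3.36 for mt-Rnr1 and 3.30 for mt-Rnr2, and without floxed replicate 3 it was 3.79 against 3.66 and 3.53. mt-Rnr1 is the RNA of the small subunit of the mitochondrial ribosome, and its level was 502, 504 and 591 cpm in floxed and 8387, 5038 and 6059 cpm in H3atKO samples. The 3 floxed samples were close together, and H3atKO replicate 1 was the highest. The change was 11.9-fold (log2 fold change 3.58, SE 0.27, limma adjusted p = 0.00615). mt-Rnr2, the RNA of the large subunit, had 599, 629 and 664 cpm in floxed and 9046, 5862 and 6689 cpm in H3atKO samples, again highest in H3atKO replicate 1. It rose 11.2-fold (log2 fold change 3.49, SE 0.25, limma adjusted p = 0.00615). After GC correction the changes were 2.32 and 2.22 on the log2 scale, with adjusted p of 0.0221 and 0.0247.

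The messenger RNAs of complex I, the NADH dehydrogenase that passes electrons into the chain, fell into a pair with larger and a pair with smaller changes. mt-Nd2 had 4888, 4456 and 9788 cpm in floxed and 42012, 64924 and 95932 cpm in H3atKO samples, a 10.8-fold rise (log2 fold change 3.43, SE 0.43, limma adjusted p = 0.0108). mt-Nd1 had 5421, 5071 and 10870 cpm in floxed and 39748, 58613 and 74182 cpm in H3atKO samples, a rise of 8.36-fold (log2 fold change 3.06, SE 0.40, limma adjusted p = 0.0118). In both genes floxed replicate 3 was well above the other floxed samples, yet below every H3atKO sample.

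mt-Nd4, which encodes another membrane subunit of complex I, had 5008, 5142 and 8188 cpm in floxed and 19735, 34714 and 29889 cpm in H3atKO samples. Its rise was 4.61-fold (log2 fold change 2.20, SE 0.34, limma adjusted p = 0.0160). mt-Nd5 had 6514, 7465 and 9842 cpm in floxed and 21278, 42019 and 41894 cpm in H3atKO samples, a rise of 4.29-fold (log2 fold change 2.10, SE 0.36, limma adjusted p = 0.0207). These were the smallest changes among the 9 members in this fit, and the genotypes did not overlap in either gene. With the GC correction the log2 fold changes of mt-Nd4 and mt-Nd5 were 0.94 and 0.90, with adjusted p of 0.0967 and 0.0911, so that neither was called.

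mt-Cytb encodes cytochrome b of complex III, and mt-Co1 the catalytic subunit of complex IV, cytochrome c oxidase. mt-Cytb had 12406, 11257 and 19802 cpm in floxed and 57326, 112431 and 108616 cpm in H3atKO samples, a rise of 6.33-fold (log2 fold change 2.66, SE 0.38, limma adjusted p = 0.0142). mt-Co1, the most abundant member, had 18038, 20796 and 34765 cpm in floxed and 94130, 176681 and 168498 cpm in H3atKO samples, a rise of 5.98-fold (log2 fold change 2.58, SE 0.39, limma adjusted p = 0.0151). In both genes H3atKO replicate 1 was the lowest of the H3atKO samples, the opposite of its place for the ribosomal RNAs. With the GC correction their log2 fold changes were 1.54 and 1.504, with adjusted p of 0.0299 and 0.0268.

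mt-Nd6, the light-strand member, encodes a small membrane subunit of complex I and was by far the least abundant. In human mitochondria its messenger RNA is known to lack the poly(A) tail that the other messenger RNAs carry. It had 623, 424 and 786 counts in floxed and 2472, 2567 and 1909 counts in H3atKO samples. Scaled by TMM these were 13.7, 10.2 and 19.1 cpm and 102, 131 and 121 cpm. The rise was 8.45-fold (log2 fold change 3.08, SE 0.29, limma adjusted p = 0.00793), and 1.77 on the log2 scale with the GC correction (adjusted p = 0.0343).

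Across the 8 heavy-strand members the changes were larger near the start of the heavy-strand transcript, with a Spearman rho of -0.83 between log2 fold change and start position, against -0.33 with GC content. These are descriptions over 8 genes of the same libraries, which share precursor transcripts. mt-Rnr1, mt-Rnr2, mt-Nd1 and mt-Nd2, the first 4 members in genome order, had log2 fold changes from 3.06 to 3.58, whereas mt-Co1, mt-Nd4, mt-Nd5 and mt-Cytb had 2.10 to 2.66. mt-Cytb, the last gene, had a larger change than mt-Nd4 and mt-Nd5 before it.

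Because TMM and library size act on all members alike, the make-up of the mitochondrial counts gives a view that needs no scaling. mt-Nd2 made up 9.16%, 8.05% and 10.4% of the counts of the 9 members in floxed and 14.4%, 12.97% and 18.0% in H3atKO samples. mt-Nd1 made up 10.3% ± 1.17 and 13.1% ± 1.21 (SD, n = 3 here and for the next parts). In contrast, mt-Nd5 made up 12.2%, 13.5% and 10.4% in floxed and 7.29%, 8.397% and 7.88% in H3atKO samples. mt-Nd4 likewise made up a smaller part in H3atKO, at 9.11% ± 0.392 and 6.44% ± 0.716. For these 4 complex I messenger RNAs, as for both ribosomal RNAs, the genotypes did not overlap (exact permutation p = 0.1 for each, the smallest possible). mt-Co1 made up 36.0% ± 2.00 and 33.1% ± 1.95 (exact permutation p = 0.2) and mt-Cytb 21.5% ± 1.53 and 20.8% ± 1.46 (exact permutation p = 0.6), with overlapping samples.

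**Figure D3:**
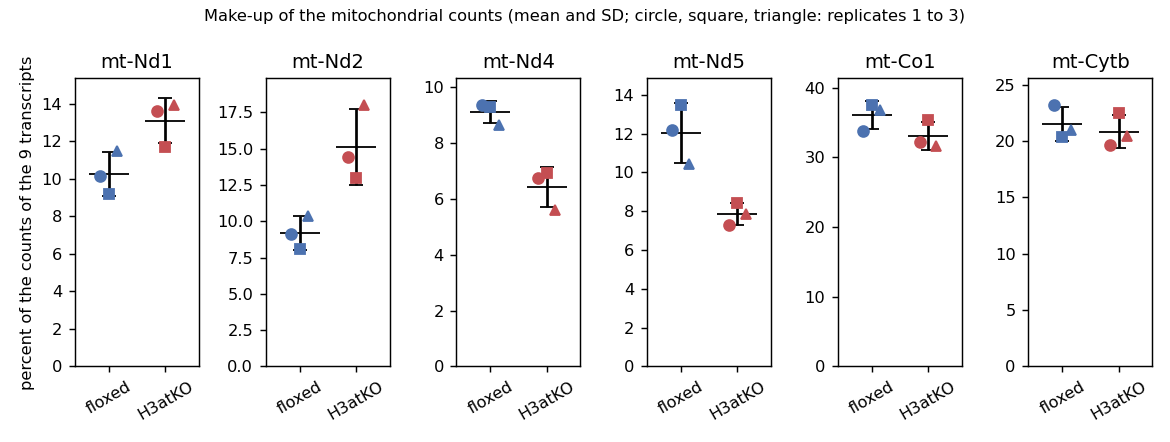
Percent of the counts of the 9 members that lay on each of the 6 heavy-strand messenger RNAs, per sample (points, n = 3 per genotype, a marker shape per replicate) with mean and SD, on a separate linear axis from 0 for each gene. mt-Nd1 and mt-Nd2 took a larger part in every H3atKO sample than in any floxed sample and mt-Nd4 and mt-Nd5 a smaller part, whereas mt-Co1 and mt-Cytb overlapped.

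Ratios of pairs within complex I show the same split by sample and were picked with the values in view. There were 0.750, 0.597 and 0.994 counts of mt-Nd2 per count of mt-Nd5 in floxed and 1.97, 1.55 and 2.29 in H3atKO samples. Counts of mt-Nd1 per count of mt-Nd4 were 1.08, 0.986 and 1.33 in floxed and 2.01, 1.69 and 2.48 in H3atKO samples. By contrast the ratio of mt-Nd5 to mt-Nd4 was 1.301, 1.45 and 1.20 against 1.08, 1.21 and 1.40, with overlapping samples (exact permutation p = 0.5). Of this last pair mt-Nd4 shares much of its sequence with chromosome 1, and mt-Nd5 has no 100-base window copied elsewhere.

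Counts of the heavy-strand members were compared with those of mt-Nd6, the light-strand member. Per 1000 counts of the 6 heavy-strand messenger RNAs there were 0.261, 0.188 and 0.205 counts of mt-Nd6 in floxed and 0.371, 0.267 and 0.232 in H3atKO samples. H3atKO replicate 3 lay below floxed replicate 1, so the genotypes overlapped. The log2 ratio differed by 0.40 (1.32-fold, two-sided exact permutation p = 0.2, adjusted p = 0.25 over 5 ratios). Within each of the 3 same-numbered pairs the ratio was higher in H3atKO, and the exact paired permutation test gave p = 0.25, the smallest that 3 pairs allow. Against mt-Nd5 alone, its neighbour on the heavy strand, there were 2.10, 1.36 and 1.94 counts of mt-Nd6 per 1000 in floxed and 4.78, 3.11 and 2.88 in H3atKO samples, without overlap (exact permutation p = 0.1, a pair picked with the values in view). The balance of these counts thus depended on which heavy-strand gene stood for the heavy strand. mt-Nd6 and every heavy-strand member had more counts in H3atKO samples. With the strand setting unknown, mt-Nd6 counts may hold heavy-strand precursor reads and are no sure measure of light-strand output. Over all 37 genes, those of the light strand held 0.0266%, 0.0190% and 0.0207% of mitochondrial counts in floxed and 0.0366%, 0.0269% and 0.0233% in H3atKO samples.

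The ratio of ribosomal to messenger RNA rested on 1 pool. Per 100 counts of heavy-strand messenger RNA there were 2.11, 2.09 and 1.35 counts of mt-Rnr1 and mt-Rnr2 together in floxed and 6.36, 2.23 and 2.46 in H3atKO samples. The genotypes did not overlap, but H3atKO replicate 1 stood far above the other samples. The log2 ratio was higher in H3atKO by 0.85 (exact permutation p = 0.1, adjusted p = 0.25 over 5 ratios), and without H3atKO replicate 1 the difference was 0.37.

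The other ratios overlapped between the genotypes. Counts of mt-Rnr2 per count of mt-Rnr1 were 1.19, 1.25 and 1.12 in floxed and 1.08, 1.16 and 1.104 in H3atKO samples (log2 difference -0.09, exact permutation p = 0.2, adjusted p = 0.25). Against the summed counts of the 4 heavy-strand complex I messenger RNAs, mt-Co1 had ratios of 0.826, 0.940 and 0.899 in floxed and 0.767, 0.882 and 0.697 in H3atKO samples (log2 difference -0.19, exact permutation p = 0.2, adjusted p = 0.25). The balance of complex IV and complex I messenger RNA thus differed by less than could be resolved with 3 pools a genotype. For mt-Cytb against complex I the log2 difference was -0.11 (exact permutation p = 0.4, adjusted p = 0.4).

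**Figure D4:**
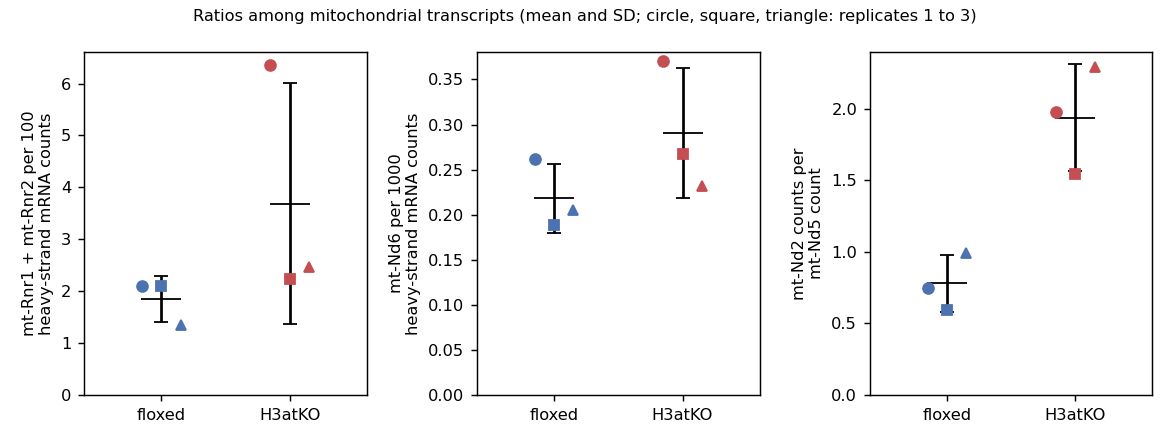
Count ratios in each sample (points, n = 3 per genotype, a marker shape per replicate) with mean and SD, on linear axes from 0, for ribosomal RNA per 100 heavy-strand messenger RNA counts, mt-Nd6 per 1000 such counts and mt-Nd2 per mt-Nd5. H3atKO replicate 1 stands at 6.36 in the first panel, the genotypes overlap in the second, and in the third every H3atKO sample is at or above 1.55 and every floxed sample at or below 0.994.

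Levels per length were compared between the members as TMM-scaled cpm per 1000 bases of gene. In floxed samples the order by mean was mt-Co1 at 15879, mt-Cytb at 12665, mt-Nd1 at 7441, mt-Nd2 at 6144, mt-Nd4 at 4436, mt-Nd5 at 4353, mt-Rnr1 at 558, mt-Rnr2 at 399 and mt-Nd6 at 27.6. Every neighbouring pair kept this order in 3 of 3 floxed samples except mt-Nd4 and mt-Nd5, which did so in 2 of 3. In H3atKO samples mt-Nd2 (65147) stood above mt-Nd1 (60098) in 2 of 3 samples and mt-Nd4 (20401) above mt-Nd5 (19223) in 2 of 3. mt-Co1 led at 94781, before mt-Cytb at 81111, and mt-Nd6 was last at 227. Taken over the 502 bases of mt-Nd4 outside the nuclear copy, its floxed level was 12177, above that of mt-Nd1 and just below that of mt-Cytb. On the same footing mt-Co1 stayed first, at 23014 over the 1066 bases outside the chromosome 1 copy. Exact copies of mt-Co1 windows also lie in Gm13340 and, at 50 bases, in Gm11512, and these were not taken into account.

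Of the 22 transfer RNA genes, which lie between the members, 6 passed the filter and 11 had no count in any sample. By limma 5 of the 6 were called higher in H3atKO, against 9.42% of all genes. With the GC correction 3 of the 6 were called higher, against 807 of all 14967 genes. That correction left mt-Tq at an adjusted p of 0.0903 and mt-Tw at 0.382. The largest change was that of mt-Ti, next to mt-Nd1, with a log2 fold change of 4.11 (adjusted p = 0.00793), followed by mt-Tm at 4.01 (adjusted p = 0.0119). mt-Tt, next to mt-Cytb, had 2.08 (adjusted p = 0.0547). The smallest change was that of mt-Tw, next to mt-Nd2, at 1.71 (adjusted p = 0.0448). The light-strand mt-Tq and mt-Tp had 3.45 (adjusted p = 0.0241) and 3.27 (adjusted p = 0.0271). Transfer RNAs are shorter than the fragments such libraries are made for, and their counts reached at most 791.

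The nuclear genes that read and process the mitochondrial genome differed among themselves. Of 9 genes of mitochondrial transcription, limma called 2 higher, against 9.42% of all genes. These were Tfam, which packages and activates the genome (28.8 to 69.9 cpm, log2 fold change 1.31, adjusted p = 0.0269), and Tfb2m, which opens the promoter (14.5 to 41.6 cpm, log2 fold change 1.53, adjusted p = 0.0247). Polrmt, the polymerase itself, had 13.2, 4.13 and 1.41 cpm in floxed and 1.23, 0.662 and 0.505 cpm in H3atKO samples (log2 fold change -2.44, adjusted p = 0.128). The floxed samples ranged widely, its GC content was 60.5%, and with the GC correction its log2 fold change was -0.10. The GC correction left Tfam at 0.77 (adjusted p = 0.0498) and Tfb2m at 0.67 (adjusted p = 0.208). Thus 1 call higher remained in the list, against 807 of all 14967 genes. edgeR called Polrmt lower (adjusted p = 0.0389). With the replicate block 7 of the 9 were called higher and 1, Polrmt, lower (adjusted p = 0.00549), against 24.8% and 28.7% of all genes. With library sizes alone limma called 1 lower and 0 higher, against 5666 and 306 of all 14967 genes.

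Of 12 genes that replicate the mitochondrial genome, limma called 0, with 3 lower and 0 higher at an unadjusted p under 0.05. Calls lower numbered 2 by edgeR, 3 by DESeq2 and 5 with the replicate block, and calls higher were 0 in each. Of all 14967 genes, the same fits called 2749, 3465 and 4290 lower and 1916, 2935 and 3717 higher. Their median log2 fold change was -0.17, close to that of all genes. Polg, the replicative polymerase, had -0.97 (adjusted p = 0.0715, and 0.00661 with the replicate block), and Twnk, the helicase, had -0.94 (adjusted p = 0.170, and 0.0287 with the block). With the GC correction Polg had -0.16 (adjusted p = 0.560) and Twnk -0.03 (adjusted p = 0.954), so that neither was called.

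Of 30 genes that cut, tail and stabilise mitochondrial RNA, limma called 13 higher, against 9.42% of all genes, with 2 lower at an unadjusted p under 0.05, and edgeR called 13 higher and 1 lower. The largest changes were those of Ptcd3, a protein of the small subunit of the mitochondrial ribosome (log2 fold change 2.34, adjusted p = 0.00946), Pde12, which removes poly(A) tails (2.27, adjusted p = 0.00999), and Trmt10c, a subunit of the enzyme that cuts the 5′ ends of transfer RNAs (2.04, adjusted p = 0.0136). Mtpap, the polymerase that adds the tails, rose from 43.8 to 144 cpm (log2 fold change 1.71, adjusted p = 0.0155), and Lrpprc, which binds and protects messenger RNAs, from 40.7 to 108 cpm (1.40, adjusted p = 0.0217). The replicate block called 13 higher and 7 lower, against 24.8% and 28.7% of all genes. With library sizes alone 5 were called higher and 8 lower, against 306 and 5666 of all 14967 genes.

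For the nuclear subunits of complex I, limma called 10 of 36 higher and 0 lower (6 lower at an unadjusted p under 0.05), against 9.42% and 7.07% of all genes. With the GC correction the calls were 12 higher and 0 lower, by edgeR 10 and 6, and by DESeq2 11 and 11. Over all 14967 genes these fits called 807 and 465, 1916 and 2749, and 2935 and 3465. The leading genes were the accessory subunits Ndufb6 (log2 fold change 2.06, adjusted p = 0.0124), Ndufb4 (1.96, adjusted p = 0.0200) and Ndufab1 (1.87, adjusted p = 0.0120). The median was 0.11, against 3.06 for the 9 mitochondrial members. With the replicate block 12 were higher and 14 lower, against 24.8% and 28.7% of all genes. With library sizes alone 6 were higher and 16 lower, against 306 and 5666 of all 14967 genes. The direction with more calls was thus not the same in every fit.

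For complex III, limma called 3 of 9 higher, against 9.42% of all genes, the share that also applies to complexes IV and II. These were Uqcrb (2.31), Uqcrfs1 (1.62) and Uqcrc2 (1.33 on the log2 scale), and the median was -0.35. edgeR also called 3 higher and 1 lower, against 1916 and 2749 of all 14967 genes. For complex IV it called 4 of 14, the largest changes being Cox5a (1.89), Cox6c (1.51) and Cox7b (1.46), with edgeR at 5 higher and a median of 0.04. Complex II, which has no subunit in the mitochondrial genome, had 2 of 4 called higher, Sdha (1.16) and Sdhd (1.03). With library sizes alone the calls were 1 higher and 2 lower for complex III, 1 and 5 for complex IV, and 1 lower for complex II. Of all 14967 genes, that fit called 306 higher and 5666 lower. After the GC correction Uqcrc2 (0.72, adjusted p = 0.125), Cox5a (0.93, adjusted p = 0.107) and Cox7b (0.54, adjusted p = 0.206) were no longer called. Of 7 regulators of mitochondrial biogenesis limma called 1, Gabpa (log2 fold change 1.16, adjusted p = 0.0406, and 0.19 with adjusted p = 0.408 after the GC correction), a share close to the 9.42% of all genes. The coactivator Ppargc1a had 1.39 (adjusted p = 0.0546, and 0.0118 with the replicate block), and 0.45 after the GC correction (adjusted p = 0.389). That correction called 1 other regulator of the 7 higher, against 807 of all 14967 genes.

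Among nuclear genes with a mean of at least 5 log2 cpm, the 5 whose level followed the mean of the 8 heavy-strand members most closely were Dld (Pearson r 0.9997 over 6 samples), Dlat (0.9991), Pdha1 (0.9990), Chchd2 (0.9988) and St3gal6 (0.9987). Dld, Dlat and Pdha1 encode subunits of the pyruvate dehydrogenase complex. Dld had 170, 175 and 276 cpm in floxed and 1143, 1533 and 1797 cpm in H3atKO samples. Within each genotype replicate 3 was the highest, as for mt-Nd1 and mt-Nd2. These values describe a likeness that the gap between 2 genotypes dominates, and 684 of 4139 genes compared had an r of at least 0.95. mt-Nd6 had 0.994.

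Markers of the cell types that IngWAT can hold were summed per sample as TMM-scaled cpm. The 9 adipocyte markers summed to between 14655 and 35712 cpm in floxed and 15724 and 27018 cpm in H3atKO samples, so that the list as a whole was present in all 6 samples. Fabp4, a fatty acid carrier, made up most of the sum, at 10331 to 19214 cpm in floxed and 12906 to 22032 cpm in H3atKO samples. The median log2 fold change of the list was -1.49, and Cfd, the secreted protein adipsin, was called lower (3098 to 162 cpm, adjusted p = 0.0223). With the GC correction the median was -0.79. Cfd was the 1 marker still called lower (log2 fold change -1.93, adjusted p = 0.0227), against 465 of all 14967 genes. With the replicate block 4 of the 9 were called lower and 0 higher, against 28.7% and 24.8% of all genes. The 9 brown and beige markers summed to 113, 53.8 and 70.6 cpm in floxed and 1187, 451 and 346 cpm in H3atKO samples, without overlap, and Elovl3, Dio2 and Ppara among them were called higher. Elovl3, a fatty acid elongase, alone held 721, 283 and 172 cpm of the H3atKO sums. Ucp1, the uncoupling protein that defines brown fat, had 158, 1.32 and 11.5 cpm in H3atKO and 12.6, 0.577 and 3.33 cpm in floxed samples (log2 fold change 2.33, adjusted p = 0.353, and 0.00536 with the replicate block). Prdm16, a regulator of brown fat identity, stood at -1.21 on the log2 scale (limma adjusted p = 0.0785, blocked 0.0251), and Cox7a1 had -0.28 (adjusted p = 0.780). With the GC correction Ucp1 had 2.07 (adjusted p = 0.496), Prdm16 -0.28 (adjusted p = 0.554) and Cox7a1 1.06 (adjusted p = 0.180). The highest sum of the brown and beige markers was in H3atKO replicate 1, where the ribosomal RNAs were highest but mt-Co1 and mt-Cytb were the lowest of the H3atKO samples.

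Skeletal muscle, which is rich in mitochondria, is a neighbour of this tissue. Its 12 markers summed to 1196, 653 and 2840 cpm in floxed and 417, 3629 and 3.16 cpm in H3atKO samples. H3atKO replicate 3 had nearly no muscle marker counts and a mitochondrial share of 35.3%, the largest of all samples. In H3atKO replicates 1 and 2 the share was 26.9% and 33.8%. Among the floxed samples, replicate 3 had both the highest muscle sum and the highest share, at 12.9%. Lymphocyte markers summed to 28.8 to 181 cpm in floxed and 78.5 to 1193 cpm in H3atKO samples, and macrophage markers to 369 to 2140 and 335 to 599 cpm, both with overlap. Endothelial sums were 559 to 920 cpm in floxed and 380 to 513 cpm in H3atKO samples, and progenitor sums 520 to 1474 and 286 to 382 cpm, without overlap. Without the replicate block, limma called 0 of 9 lymphocyte markers higher, against 9.42% of all genes. It called 2 of 5 endothelial, 2 of 6 progenitor, 1 of 6 macrophage and 0 of 12 muscle markers lower, against 7.07%. With the replicate block 5 of 9 lymphocyte markers were called higher, against 24.8% of all genes. That fit called 4 of 5 endothelial, 3 of 6 progenitor, 1 of 6 macrophage and 0 of 12 muscle markers lower, against 28.7% of all genes. Of 7 mammary epithelium markers 2 passed the filter, with sums of at most 4.36 cpm. The part of these shifts in cell types in the mitochondrial counts was not tested.

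**Figure D5:**
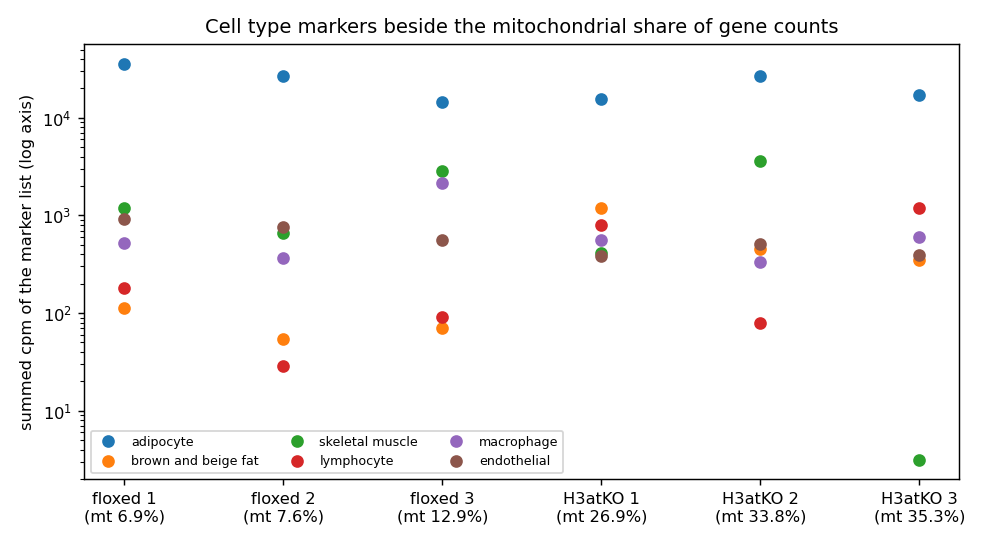
Summed TMM-scaled cpm (log axis) of the marker genes of 6 cell types, a colour each, in every sample, with the mitochondrial share of gene counts under the sample's name. Brown and beige markers are higher in all H3atKO samples, whereas muscle markers range from 3.16 to 3629 cpm within the H3atKO group.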

How the data were processed

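The authors pooled RNA within a genotype, made stranded poly(A)-selected libraries, trimmed reads with cutadapt 1.3, and used STAR 2.4.2a for alignment to GRCm38, and HTSeq 0.6.1 for counts per Ensembl gene. The deposited values are whole-number counts per gene, not normalized, with 5 tally lines per file that were read apart from the genes. Symbols, positions, GC content and transcript sequences came from GENCODE M21 on GRCm38 (46005 of 46517 identifiers matched).

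As in the study, a gene was tested if any sample reached 1 cpm. Libraries were scaled by TMM and genotypes compared by limma 3.58.1 (voom, empirical Bayes, R 4.3.3), with Benjamini-Hochberg adjustment over 14967 genes. Values given as cpm are TMM-scaled. Shares and ratios were compared by two-sided exact permutation tests over samples. Alternatives were edgeR 4.0.16, DESeq2 1.42.0, other scalings and filters, each sample left out, a correction for GC content (a robust loess curve of span 0.3 subtracted from each sample) and the replicate number as a block. The correction also takes away any genotype effect that follows GC content. The labels give both genotypes replicates 1 to 3, and same-numbered samples deviated together (r = 0.513, 0.388 and 0.297). Copied windows were sought as exact matches of 50 and 100 bases, on either strand, among annotated transcripts only. Read length is not given in the sources used here. PCR copies were not marked, so the floor of 3 counts covers counting error only. The fits were tested on simulated counts with 200 changed genes.

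The members, the gene lists and the rule for named genes (from each list the 3 largest changes with an adjusted p under 0.05 and no overlap, plus genes fixed by name) were chosen with earlier results of these data known. The pair ratios within complex I, Polg, Twnk and the transfer RNAs were picked after their values were seen.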

Additional observations from a re-analysis of the deposited data

Results flagged for a closer look

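Tallied alignments, which no test across genes used, differed between the genotypes: alignments of reads with more than 1 place made up at least 43.8% of all counted and tallied alignments in every H3atKO sample and at most 35.2% in any floxed sample. Counts on Gm28438, the nuclear copy of mt-Nd3, reached 343 in the highest H3atKO sample and 191 in the highest floxed sample, with 0 in replicate 3 of both genotypes. The cause of either pattern was not tested.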

How the results depend on the processing

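The median log2 fold change of the 9 members was 3.06, and it moved to 2.21 when only library sizes set the scale, to 1.77 under the GC correction and to 1.76 under that correction plus the replicate block. It was 3.06 with the replicate block alone, and the block changed the call of no member. Leaving out 1 sample gave a range from 2.79 to 3.31. The number of members called higher ran from 0 to 9 when 1 sample was left out: 5 without floxed replicate 1, 0 without floxed replicate 2 and 3 without H3atKO replicate 3 by limma, and 3 in each of these cases by edgeR, a fit added after the data had been seen. The difference in mitochondrial share ran from 21.2 to 25.4 percentage points. The log2 ratios ran from 0.21 to 0.54 for mt-Nd6 to heavy-strand messenger RNA, from 0.37 to 1.13 for ribosomal to messenger RNA, from -0.13 to -0.05 for mt-Rnr2 to mt-Rnr1, from -0.28 to -0.11 for mt-Co1 and from -0.21 to -0.05 for mt-Cytb to complex I. With 3 pairs the exact paired permutation test cannot go below p = 0.25. Over all genes, the 1410 higher and 1058 lower calls were 1916 and 2749 by edgeR, 2935 and 3465 by DESeq2, 3717 and 4290 with the replicate block and 807 and 465 with the GC correction. Leaving out 1 sample gave from 1 to 2729 higher and from 0 to 3828 lower calls by limma. By edgeR these ranges were 27 to 2675 and 56 to 3624. The members, the share and the 5 ratios kept their direction in the settings run, and the cause of these differences was not tested. When only library sizes set the scale, the median log2 fold change of all genes went from -0.09 to -0.94, and the medians of some gene lists changed sign. They went from 0.59 to -0.25 for mitochondrial RNA processing, from 0.11 to -0.74 for complex I and from 0.53 to -0.33 for complex II. For complex IV the change was from 0.04 to -0.82 and for biogenesis from 0.12 to -0.75. Each of these list medians stayed above that of all genes.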
